A study of Mus musculus with 203 samples.

Results

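A set of 43 genes that drive or accompany the cell division cycle were followed across every group of a mouse study of house dust mite (HDM), cigarette smoke (CS) and dexamethasone (DEX), with airway and parenchyma of the lung sequenced separately. The genes were taken from a list of symbols, and 43 of 43 were found among the 43346 Ensembl identifiers of the count table through the mouse GENCODE annotation. All 43 passed the filter on low counts in each fit. The libraries came from female BALB/c mice, labelled Balb/C and 18 to 20 weeks old, and form 20 groups. At 3 weeks the groups were mice given saline (PBS) or HDM into the nose on 5 days per week for 3 weeks, with 11 PBS and 10 HDM libraries of airway and 12 PBS and 10 HDM libraries of parenchyma. At 11 weeks there were 8 groups per tissue, each with 10 libraries. These mice had the same 3 weeks of HDM or PBS followed by HDM or PBS 3 times per week from week 4, and over those 8 weeks breathed either room air (AIR) or cigarette smoke on 5 days per week. Each of the PBS AIR, HDM AIR, PBS CS and HDM CS groups had a counterpart given DEX, a synthetic glucocorticoid, in week 11. Airway and parenchyma are tissue parts separated by dissection and hold all cells of those parts, and no gene of these mice was altered.

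Cells that leave rest and enter the cycle switch on genes in waves. E2F transcription factors first raise the enzymes and helicase subunits that copy DNA, and the MuvB complex with Mybl2 and Foxm1 later raises the kinases, motors and ubiquitin ligase parts used in mitosis, so that the summed RNA of such genes is widely read as a measure of dividing cells in a tissue. In lung under allergen or smoke exposure, dividing cells can include lymphocytes, macrophages, epithelium, endothelium and fibroblasts, and glucocorticoids are known to restrain division of many lymphoid cells and to remove immature ones. In bulk tissue, fewer cells of a type and less RNA per cell cannot be told apart.

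By role the 43 genes fall into 8 groups. Mki67 and Top2a, a nuclear antigen of cycling cells and the topoisomerase that untangles DNA before division, are the proliferation markers. The transcription factors are E2f1, E2f2, E2f8, Mybl2 and Foxm1. Cyclins and control of Cdk1 are represented by Ccne1 and Ccne2 (cyclins of S phase entry), Ccna2, Ccnb1 and Ccnb2 (cyclins of S phase and mitosis), Cdk1 itself and Cdc25c, the phosphatase that activates it. Cdc6 and Cdc45, the helicase subunits Mcm2, Mcm3, Mcm4, Mcm5, Mcm6 and Mcm7, and the sliding clamp Pcna act at replication origins and forks. Rrm1, Rrm2, Tyms and Tk1 supply deoxynucleotides. Plk1, Aurka and Aurkb are mitotic kinases, Birc5 and Cdca8 are partners of Aurkb, and Bub1 and Bub1b serve the spindle checkpoint. Cenpe, Cenpf, Kif11, Kif20a, Kif2c, Nusap1 and Tpx2 build the spindle or act at the kinetochore, and Cdc20 and Ube2c are parts of the ubiquitin system that ends mitosis.

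RefSeq promoters of mouse build GRCm38.p6 were at hand for 35 of the 43 genes, and the 250 bases before the start of 8 of them are shown because these genes cover each role and carry the sequence elements that proliferation genes share. Capitals mark the matches to 3 motifs searched on both strands, namely the cell cycle homology region CHR (TTTGAA or TTCGAA, with the complement TTCAAA), the CCAAT box (CCAAT or ATTGG) and the E2F element (GCGCCAAA, GCGCGAAA, GCGGCAAA or GCGGGAAA and their complements TTTGGCGC, TTTCGCGC, TTTGCCGC and TTTCCCGC). None of these strings contains a complete string of another motif, although neighbouring matches can share bases, as an E2F pair in Mcm6 and a CCAAT pair in Ube2c do. The windows are chr11:99024190-99024439 for Top2a (minus strand), chr7:48881597-48881846 for E2f8 (minus strand), chr10:69352913-69353162 for Cdk1 (minus strand), chr1:128359706-128359955 for Mcm6 (minus strand), chr12:24708004-24708253 for Rrm2 (plus strand), chr2:118597961-118598210 for Bub1b (plus strand), chr19:37376132-37376381 for Kif11 (plus strand) and chr2:164769679-164769928 for Ube2c (plus strand).
Top2a: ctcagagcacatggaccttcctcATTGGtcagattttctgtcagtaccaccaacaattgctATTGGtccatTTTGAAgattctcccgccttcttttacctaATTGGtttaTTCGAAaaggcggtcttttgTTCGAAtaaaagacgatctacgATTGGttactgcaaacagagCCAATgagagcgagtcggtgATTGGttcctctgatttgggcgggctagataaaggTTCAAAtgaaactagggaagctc
E2f8: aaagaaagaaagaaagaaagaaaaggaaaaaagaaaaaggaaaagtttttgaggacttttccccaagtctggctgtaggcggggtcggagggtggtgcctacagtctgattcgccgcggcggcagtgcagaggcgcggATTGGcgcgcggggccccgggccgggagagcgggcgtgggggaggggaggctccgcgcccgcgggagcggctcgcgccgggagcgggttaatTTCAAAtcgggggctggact
Cdk1: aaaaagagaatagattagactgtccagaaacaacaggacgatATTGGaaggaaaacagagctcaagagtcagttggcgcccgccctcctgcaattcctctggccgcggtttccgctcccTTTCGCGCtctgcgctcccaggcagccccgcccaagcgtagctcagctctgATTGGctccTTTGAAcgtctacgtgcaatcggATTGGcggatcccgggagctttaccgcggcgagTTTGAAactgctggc
Mcm6: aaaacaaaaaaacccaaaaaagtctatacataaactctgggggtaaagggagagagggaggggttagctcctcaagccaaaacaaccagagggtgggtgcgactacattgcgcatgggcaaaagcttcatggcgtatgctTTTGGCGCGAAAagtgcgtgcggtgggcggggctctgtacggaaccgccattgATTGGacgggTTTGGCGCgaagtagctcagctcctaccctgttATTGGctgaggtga
Rrm2: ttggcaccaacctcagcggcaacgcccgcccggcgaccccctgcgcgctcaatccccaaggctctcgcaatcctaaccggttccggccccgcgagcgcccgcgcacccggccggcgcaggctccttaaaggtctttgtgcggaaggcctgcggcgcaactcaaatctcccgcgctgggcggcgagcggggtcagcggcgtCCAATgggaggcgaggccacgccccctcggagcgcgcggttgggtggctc
Bub1b: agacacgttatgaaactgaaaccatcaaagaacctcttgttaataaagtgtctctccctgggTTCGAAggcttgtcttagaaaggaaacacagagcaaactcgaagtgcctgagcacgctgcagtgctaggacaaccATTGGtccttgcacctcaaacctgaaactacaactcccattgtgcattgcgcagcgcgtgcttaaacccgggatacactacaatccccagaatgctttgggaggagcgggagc
Kif11: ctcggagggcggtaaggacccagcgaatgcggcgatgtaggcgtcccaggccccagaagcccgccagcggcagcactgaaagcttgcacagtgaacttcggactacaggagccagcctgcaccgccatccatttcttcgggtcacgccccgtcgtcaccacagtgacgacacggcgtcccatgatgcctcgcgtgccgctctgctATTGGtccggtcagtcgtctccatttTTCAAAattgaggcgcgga
Ube2c: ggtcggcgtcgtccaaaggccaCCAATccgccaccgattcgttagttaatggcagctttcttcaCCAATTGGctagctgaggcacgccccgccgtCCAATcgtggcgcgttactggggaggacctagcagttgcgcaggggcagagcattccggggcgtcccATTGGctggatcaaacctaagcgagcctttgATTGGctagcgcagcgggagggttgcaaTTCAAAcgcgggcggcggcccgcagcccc

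The CHR is known as the element bound by MuvB complexes and the CCAAT box as that of NF-Y. In the window from 250 bases before to 50 after the start, a CHR was found in 18 of 35 genes (51.4%) and in 19.4% of all 27018 promoters, a CCAAT box in 26 (74.3%) and in 37.9% of all, and an E2F element in 7 (20.0%) and in 2.32% of all. A CHR together with a CCAAT box was found in 17 genes (48.6%) and in 7.70% of all promoters. The motifs differed by role. A CHR was present in both proliferation markers, in both exit genes and in 5 of 6 mitotic kinase and checkpoint genes, but in 0 of 4 genes of deoxynucleotide supply, while 5 of the 7 genes with an E2F element were among the 8 replication genes with a promoter. In Top2a the CHR nearest the start began 23 bases before it with a CCAAT box 58 bases before it, and in Kif11 they began 19 and 45 bases before it, whereas in Mcm6 the E2F elements began 110 and 47 bases before the start, with a further one that overlaps the first of these. These matches describe the letters of the windows, and binding was not measured.

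Library totals ran from 13003111 to 40240710 estimated counts with a median of 28090641. The labels name the libraries of a group as separate samples, so p-values measure the spread between these samples. The labelled tissues could be checked in part: summed markers of cardiac muscle reached 3858 CPM (counts scaled to a common library size) in airway libraries at 11 weeks but 62.02 CPM at most in parenchyma, with a lowest airway value of 41.5 CPM. In 3 DEX libraries (X160 and X116 of parenchyma and X159 of airway) 43, 42 and 40 of the 43 genes were the highest of the group. Of them 35, 15 and 17 were more than 1 on the log2 scale above the next library. Most results that rest on these libraries are given with and without them. Neighbouring library codes were held by 1 airway and 1 parenchyma library of the same condition in 101 cases. The labels do not say that such a pair came from 1 mouse, so tissues were compared as separate libraries, and the value with these pairs fitted as a replicate block is given where it changes a count between tissues.

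Levels of the genes differed widely at a common scale of CPM per kilobase of exon. The median over all libraries was lowest for Cdc25c at 0.0968 and highest for Pcna at 37.04 CPM per kilobase, and the helicase subunits Mcm4 (8.60), Mcm7 (5.85) and Mcm3 (5.43) followed Pcna. The mean log2 CPM over the 43 genes summarises them per library. Among the 11-week airway groups it was highest in HDM AIR mice (3.70 ± 0.17, SD, n = 10) and then fell in the order HDM CS (3.06 ± 0.22), PBS CS (2.60 ± 0.19), PBS AIR (2.30 ± 0.34), HDM CS DEX (2.13 ± 0.51), PBS CS DEX (2.09 ± 0.36), HDM AIR DEX (2.03 ± 0.46) and PBS AIR DEX (1.87 ± 0.19). From PBS CS downwards, neighbours in this order were closer than the larger of their SDs. Without X159 the HDM CS DEX mean was 1.99 ± 0.28, below those of PBS CS DEX and HDM AIR DEX. In parenchyma the order was HDM AIR (3.49 ± 0.34), PBS CS (2.97 ± 0.14), HDM CS (2.88 ± 0.17), PBS CS DEX (2.69 ± 0.52), HDM CS DEX (2.51 ± 0.78), PBS AIR (2.40 ± 0.28), HDM AIR DEX (1.85 ± 0.45) and PBS AIR DEX (1.81 ± 0.17). Neighbours here were closer than the larger of their SDs except at the steps from HDM AIR to PBS CS and from PBS AIR to HDM AIR DEX. Without X160 the HDM CS DEX mean was 2.27 ± 0.23, below that of PBS AIR. Without X116 the PBS CS DEX mean was 2.55 ± 0.26. The 3-week HDM groups stood above all of these at 4.24 ± 0.23 in airway and 4.11 ± 0.21 in parenchyma, against 2.51 ± 0.26 and 2.38 ± 0.19 in the 3-week PBS groups.

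**Figure D1:**
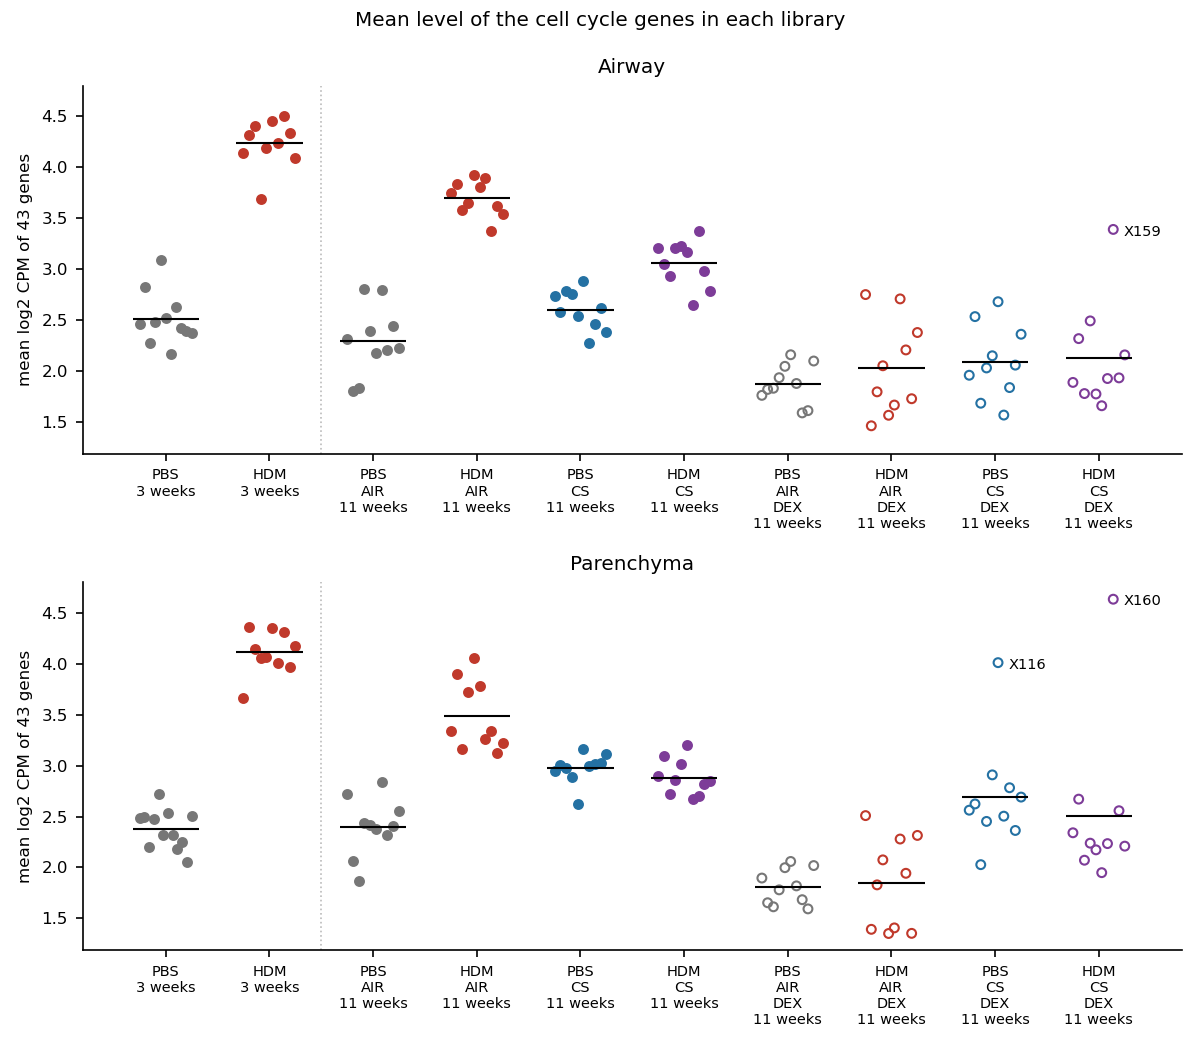
Mean log2 CPM of the 43 cell cycle genes (vertical axis) in each library, by group (horizontal axis), for airway and parenchyma; each point is 1 library and the line is the group mean. The HDM groups at 3 weeks and the HDM AIR groups at 11 weeks are highest, and 3 labelled DEX libraries lie above the other 9 of their groups, X160 at 4.63, X116 at 4.01 and X159 at 3.39.

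mRNAs of each role among the 43 genes were upregulated by HDM in both tissues. At 3 weeks 43 of 43 genes passed the test in the upward direction in airway (limma-voom, adjusted p below 0.05 over all genes tested, where 34.1% of genes tested rose) and 43 in parenchyma (33.4% of genes). With a log2 fold change of at least 1 required as well, 36 were called in airway (12.1% of genes) and 35 in parenchyma (14.5%), and the median log2 fold changes over the 43 genes were 1.81 and 1.77. At 11 weeks 43 genes rose in airway (31.3% of genes) and 42 in parenchyma (32.6%), 33 and 28 of them called (10.6% and 13.0%), with medians of 1.60 and 1.30, a 3.02-fold and 2.46-fold difference. The median of all genes tested was -0.07 and -0.13 at 3 weeks and 0.00 and 0.05 at 11 weeks. The exception was Mcm4 in parenchyma, with 27.9 to 48.7 CPM (median 34.9) in PBS AIR mice and 30.7 to 45.2 CPM (median 39.1) in HDM AIR mice, ranges that overlap almost fully (log2 fold change 0.16 ± 0.08, SE, adjusted p = 0.073).

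Mki67, on the minus strand of chr7:135689784-135716361, ranged from 10.3 to 29.99 CPM with a median of 18.7 in airway of 11-week PBS AIR mice and from 69.96 to 117.5 CPM with a median of 88.4 in HDM AIR mice. The ranges did not overlap, and the log2 fold change was 2.30 ± 0.22 (SE, adjusted p = 2.7e-18). In parenchyma Mki67 was at 10.8 to 34.7 CPM (median 22.5) in PBS AIR and 45.1 to 118.7 CPM (median 68.9) in HDM AIR mice, again without overlap (1.67 ± 0.22, adjusted p = 1.3e-11). Top2a went from 7.12 to 30.4 CPM (median 13.6) to 36.1 to 69.4 CPM (median 49.5) in airway (1.91 ± 0.22, adjusted p = 4e-14). Its parenchyma log2 fold change was 1.57 ± 0.22 (adjusted p = 4e-10).

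Mitotic genes and cyclins moved further than replication genes. In airway at 11 weeks the median log2 fold change was 1.87 over the 7 kinase and checkpoint genes, 1.87 over the 7 cyclin and Cdk1 genes and 1.62 over the 7 spindle genes, against 0.96 over the 9 replication genes and 1.10 over the 4 genes of deoxynucleotide supply. Among kinases, Aurkb, the catalytic part of the chromosomal passenger complex, rose from 0.913 to 3.55 CPM (median 1.84) to 6.16 to 9.41 CPM (median 7.87) in airway (2.04 ± 0.20, adjusted p = 5.3e-18), and its partner Cdca8 rose from 1.24 to 2.73 CPM (median 2.03) to 5.39 to 10.6 CPM (median 6.62) in parenchyma (1.96 ± 0.21, adjusted p = 1.7e-15). Bub1 was the kinase gene with the largest adjusted p in airway (1.68 ± 0.21, adjusted p = 5.2e-12), where Cdca8 changed by 1.89 ± 0.19. Among cyclins, Ccne1 was at 0.699 to 1.73 CPM (median 0.999) in parenchyma of PBS AIR mice and at 3.06 to 6.80 CPM (median 5.23) in HDM AIR mice. Its log2 fold change of 2.24 ± 0.23 (adjusted p = 1.5e-16) was the highest of the 43 genes in that tissue, and that in airway was 2.07 ± 0.21. Ccna2 rose by 1.87 ± 0.21 in airway, and Ccne2, the other E cyclin, by 0.98 ± 0.17 (adjusted p = 2.2e-07), the weakest of its role there.

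Of the transcription factors, Mybl2 gave one of the smallest adjusted p-values in both tissues. It ran from 1.54 to 3.04 CPM (median 2.16) in airway of PBS AIR mice and from 5.37 to 7.60 CPM (median 5.90) in HDM AIR mice, without overlap (1.46 ± 0.13, adjusted p = 8.8e-20). In parenchyma it changed by 1.52 ± 0.15 (adjusted p = 6.5e-18) and E2f8, a repressor among the E2F proteins, by 1.59 ± 0.21 (adjusted p = 1.2e-11). E2f2 changed by 0.83 ± 0.08 in airway (adjusted p = 3.2e-18) and Foxm1 by 1.24 ± 0.16 (adjusted p = 3.7e-12), whereas E2f1 in parenchyma changed by 0.47 ± 0.11. Among replication genes Mcm5 had log2 fold changes of 1.33 ± 0.16 in airway and 1.10 ± 0.16 in parenchyma, and Cdc45 1.15 ± 0.14 and 0.98 ± 0.14. The abundant clamp gene Pcna rose from 70.3 to 90.3 CPM (median 82.9) to 98.1 to 133.1 CPM (median 111.6) in airway, a small but non-overlapping shift. Cdc6, which loads the helicase, had the largest adjusted p of its role in airway (0.96 ± 0.18, adjusted p = 8e-07).

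For deoxynucleotide supply, Rrm2, the cycle-regulated subunit of ribonucleotide reductase, rose from 4.21 to 9.65 CPM (median 5.17) to 13.9 to 26.7 CPM (median 21.6) in airway (1.85 ± 0.21, adjusted p = 4e-14). Tyms had the largest adjusted p of the role in airway (0.59 ± 0.11) and Rrm1 in parenchyma (0.28 ± 0.07, adjusted p = 0.00066), while the thymidine kinase gene Tk1 changed by 1.61 ± 0.19 and 1.51 ± 0.20. Of the spindle genes, the motor gene Kif11 changed by 1.62 ± 0.19 in airway and 1.55 ± 0.21 in parenchyma, Tpx2 by 1.55 ± 0.17 and 1.26 ± 0.18, and Cenpf least significantly by 1.30 ± 0.25 and 0.91 ± 0.26. Ube2c and Cdc20 changed by 2.02 ± 0.27 and 1.30 ± 0.20 in airway and by 1.53 ± 0.27 and 0.75 ± 0.21 in parenchyma.

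Markers of blood-borne cells moved with these genes under HDM. In airway and parenchyma at 11 weeks 10 of 10 T cell markers, 10 of 10 B cell markers and 10 of 10 monocyte and macrophage markers rose, and the summed T cell markers ran from 60.4 to 300 CPM in PBS AIR and 241 to 447 CPM in HDM AIR airway and from 64.6 to 93.5 and 191.6 to 398 CPM in parenchyma. Germinal centre B cell markers, which include genes of dividing B cells, rose in 8 of 10 in airway (146.3 to 203.3 against 235 to 281 CPM summed). Erythroid markers fell, 6 of 6 in airway with a median log2 fold change of -1.34. The part of these cells in the rise of the cell cycle genes was not tested.

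**Figure D2:**
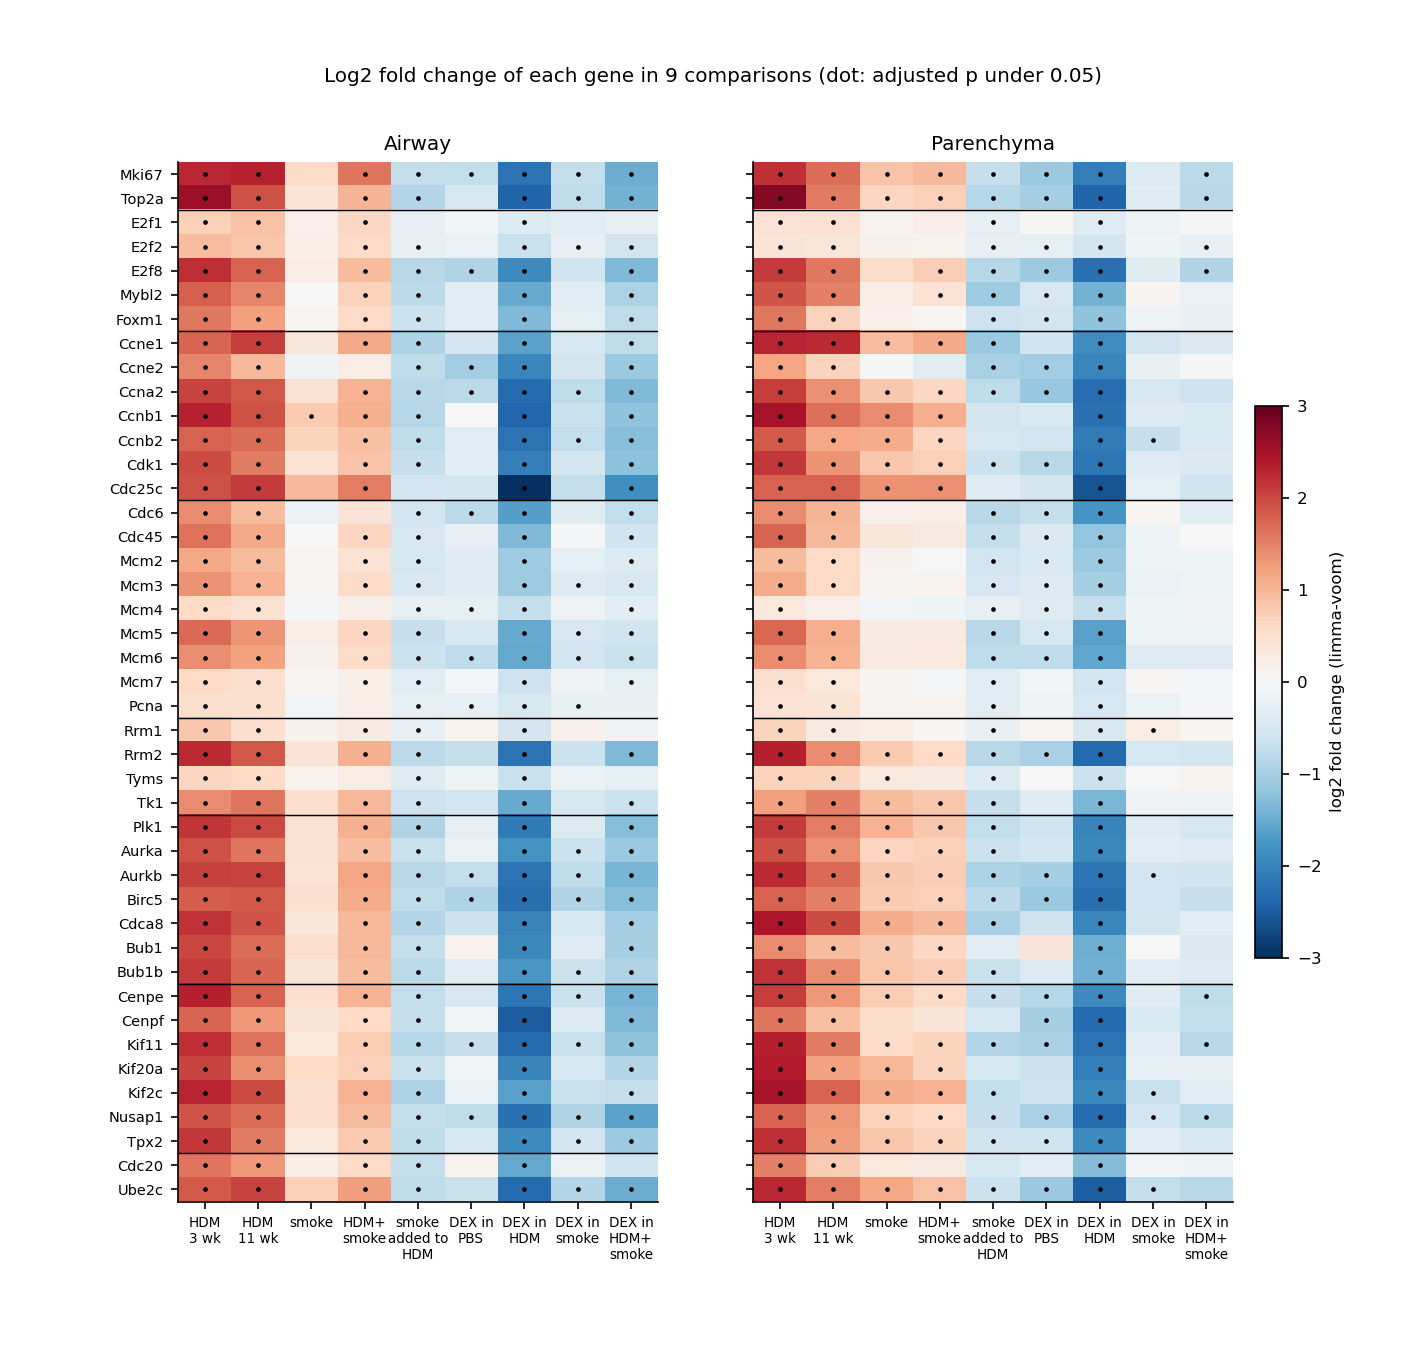
Log2 fold changes (colour, from -3 to 3) of the 43 genes (rows, by role) in 9 comparisons (columns) for airway and parenchyma; a dot marks adjusted p below 0.05 in limma-voom. The HDM columns hold 43 dots in airway and 42 in parenchyma at 11 weeks, the smoke columns 1 and 25, and the columns of DEX in HDM 43 and 43.

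Smoke alone raised mitotic genes in parenchyma and left the replication genes without a call. Of the 43 genes 25 rose in parenchyma of PBS CS against PBS AIR mice (17.7% of genes tested rose), 7 of them with a log2 fold change of at least 1 (4.21%), and the median over the 43 was 0.65. All 7 kinase and checkpoint genes, 6 of 7 cyclin and Cdk1 genes, 6 of 7 spindle genes and both proliferation markers passed, but 0 of 9 replication genes (median 0.14, range -0.08 to 0.33) and 0 of 5 transcription factors (median 0.15). Ccnb1, the main mitotic cyclin, ran from 1.51 to 4.48 CPM (median 2.73) in PBS AIR mice and from 4.47 to 9.52 CPM (median 7.43) in PBS CS mice (1.41 ± 0.28, adjusted p = 1.5e-05), so that the lowest smoke value lay just below the highest control value. Cdca8 went from 1.24 to 2.73 CPM (median 2.03) to 2.89 to 5.74 CPM (median 4.46) without overlap (1.11 ± 0.22, adjusted p = 2.5e-05). Ccnb2 (1.12 ± 0.24), Cdc25c (1.36 ± 0.38), Plk1 (1.05 ± 0.24), Kif2c (1.12 ± 0.27) and Ube2c (1.16 ± 0.28) were the other genes past a log2 fold change of 1.

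Mki67 in parenchyma was at 23.9 to 58.7 CPM (median 44.2) in PBS CS mice against 10.8 to 34.7 CPM in PBS AIR mice, ranges that overlap (0.85 ± 0.22, adjusted p = 0.001). Top2a changed by 0.64 ± 0.23 (adjusted p = 0.022) and Tk1 by 0.94 ± 0.21 (adjusted p = 0.00017). Mcm6 stood at 13.9 to 21.1 CPM (median 17.1) in PBS AIR and 15.5 to 28.3 CPM (median 20.0) in PBS CS mice and did not pass. Genes that missed in an otherwise responsive role were Ccne2 (-0.06), Cenpf (0.56 ± 0.26, adjusted p = 0.093), Rrm1 and Cdc20. Monocyte and macrophage markers moved with the smoke effect (7 of 10 rose, 303 to 378 CPM summed in PBS AIR and 456 to 624 CPM in PBS CS mice), as did 9 neutrophil markers, while 2 T cell markers rose. Their part was not tested.

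In airway the smoke effect was smaller and 1 gene passed, Ccnb1, at 3.45 to 6.28 CPM (median 4.65) against 1.32 to 6.84 CPM (median 2.92) in PBS AIR mice (0.78 ± 0.28, adjusted p = 0.043, where 7.66% of genes tested rose). No gene reached a log2 fold change of 1 with that test (1.73% of genes did), and 13 had an unadjusted p below 0.05. By edgeR and DESeq2 0 genes passed. With quality weights per library in limma-voom the count was 17. The median over the 43 genes was 0.35. The difference of the smoke effect between airway and parenchyma was itself tested and passed for 0 of 43 genes in limma-voom (3.04% of genes tested had a lower effect in airway), with 1 at an unadjusted p below 0.05 and 0 by edgeR and DESeq2. With neighbouring codes as a replicate block 1 gene passed, Cdca8, with the lower effect in airway, and 8 had an unadjusted p below 0.05. The share of all genes that passed with the block is not given here.

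HDM and smoke together gave lower levels than HDM alone. In airway 38 genes rose in HDM CS against PBS AIR mice (25.2% of genes tested) and 15 were called (7.33%), with a median of 0.86, and in parenchyma 26 rose (25.4%) and 4 were called (8.67%), with a median of 0.61. edgeR and DESeq2 each called 8 in airway. Mki67 reached 43.7 to 74.7 CPM (median 54.1) in airway of HDM CS mice, between the ranges of PBS AIR and HDM AIR mice except for a small overlap with the latter (1.60 ± 0.22 against PBS AIR, adjusted p = 2.1e-10). In parenchyma it was at 32.4 to 56.9 CPM (median 43.5), close to the PBS CS group (0.98 ± 0.22, adjusted p = 7.1e-05). Ccne1 (1.14 ± 0.25), Ccnb1 (1.09), Cdc25c (1.38) and Kif2c (1.04) were the called genes of parenchyma. The genes that missed in airway were Ccne2, Cdc6, Mcm4, Pcna and Tyms.

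Set directly against HDM AIR mice, smoke on top of HDM lowered 41 genes in airway (10.1% of genes tested fell), with a median of -0.71, and 36 genes in parenchyma (14.1%), with a median of -0.67. E2f1 (-0.24, adjusted p = 0.12) and Cdc25c (-0.57, adjusted p = 0.15) were the genes that missed in airway. In parenchyma Ccne1 fell from 3.06 to 6.80 CPM (median 5.23) to 1.53 to 3.32 CPM (median 2.32), and Mybl2 from 3.56 to 7.54 CPM (median 4.37) to 1.65 to 3.02 CPM (median 2.39), the latter without overlap. Their log2 fold changes of -1.11 and -1.07 were the largest of the 43. T cell markers fell in 5 of 10 in airway and 9 of 10 in parenchyma and plasma cell markers in 8 and 9, and their part was not tested.

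Against the PBS CS group, HDM on top of smoke raised 26 genes in airway (17.5% of genes tested; 15 by DESeq2), median 0.48, and in parenchyma 0 genes rose (7.53% of genes) and 0 fell, median -0.08. There 1 gene had an unadjusted p below 0.05, the smallest adjusted p was 0.155 for Ccnb2 (-0.48), and edgeR and DESeq2 called 0 genes. The interaction of HDM and smoke, which asks whether the combined effect equals the sum of the single effects on the log2 scale, was negative for 38 genes in airway (11.4% of genes tested) and 41 in parenchyma (18.7%), with 26 and 30 past a log2 value of 1 (3.50% and 7.11%) and medians of -1.13 and -1.40. In parenchyma it was -2.09 ± 0.29 for Cdca8 (adjusted p = 8.6e-10), -2.03 ± 0.32 for Ccne1, -1.54 ± 0.30 for Mki67 and -1.49 ± 0.31 for Top2a. In airway it was -1.63 ± 0.35 for Ccnb1 (adjusted p = 0.00026), -1.27 ± 0.30 for Mki67 and -1.19 ± 0.25 for Bub1b. E2f1 and Mcm4 missed in both tissues, and Ccne2, Cdc6 and Pcna in airway. These comparisons share the same PBS AIR, PBS CS and HDM AIR libraries.

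**Figure D3:**
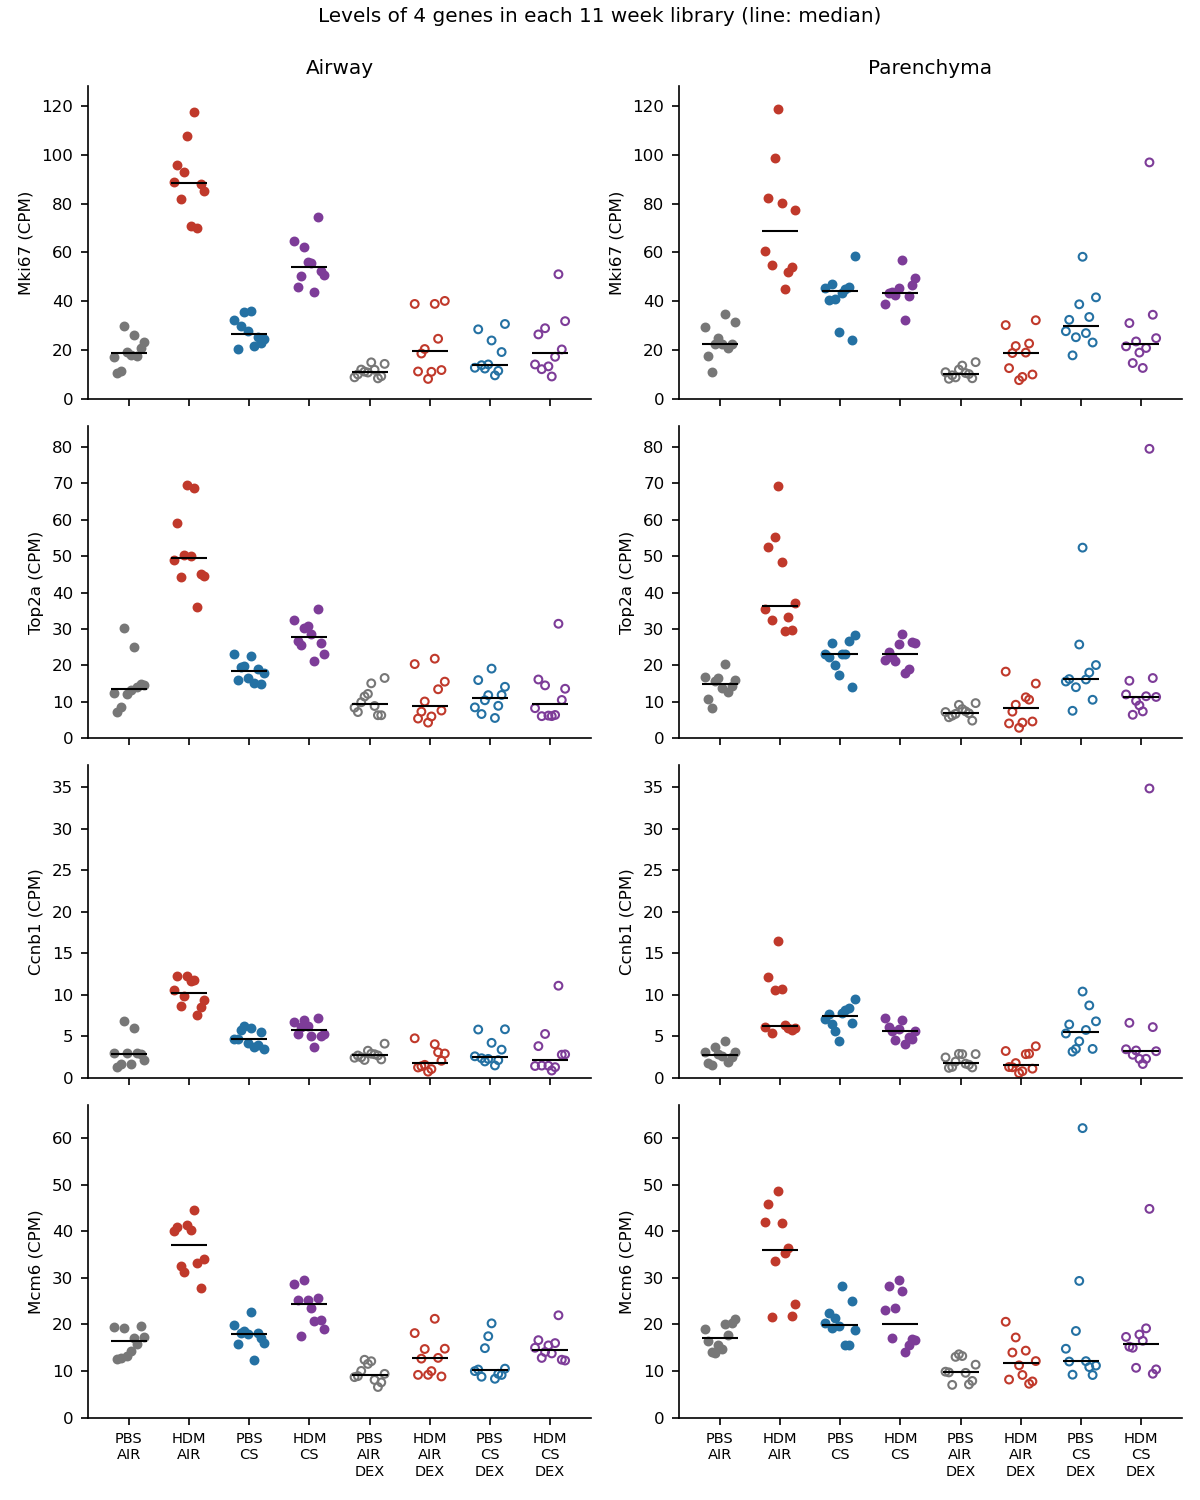
CPM (vertical axis, linear from 0) of Mki67, Top2a, Ccnb1 and Mcm6 in each 11-week library (points) by group and tissue, with the group median as a line. Mki67 is highest in HDM AIR mice (median 88.4 CPM in airway, 68.9 in parenchyma), and lower in HDM AIR DEX mice (19.4 and 18.8 CPM).

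DEX brought the 43 genes of HDM AIR mice down as a whole. In HDM AIR DEX against HDM AIR mice 43 genes fell in airway (16.1% of genes tested fell) and 43 in parenchyma (16.2%), 36 and 35 of them by a log2 value of at least 1 (5.07% and 5.40%), with medians of -1.90 and -1.91. Mki67 in airway was at 8.09 to 40.1 CPM (median 19.4) after DEX against 69.96 to 117.5 CPM without it, and the ranges did not overlap (-2.23 ± 0.22, adjusted p = 5.5e-16). In parenchyma it was at 7.58 to 32.2 CPM (median 18.8) against 45.1 to 118.7 CPM (-2.07 ± 0.23, adjusted p = 5e-13). Top2a went to 4.31 to 21.9 CPM (median 8.86) in airway (-2.39 ± 0.24) and 2.88 to 18.3 CPM (median 8.26) in parenchyma (-2.41 ± 0.27).

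As for the rise, replication genes and genes of deoxynucleotide supply moved least. Medians in airway were -2.22 for cyclins and Cdk1 control, -2.17 for spindle genes and -1.996 for kinase and checkpoint genes, and -1.07 for replication genes and -1.09 for deoxynucleotide supply. Cdc25c, the least abundant of the genes, went from 0.547 to 2.02 CPM (median 1.22) to 0.0411 to 0.445 CPM (median 0.106) in airway (-3.09 ± 0.39, adjusted p = 4.2e-11), the largest fall of the 43 genes, at levels of few reads per library. Kif11 fell by 2.30 ± 0.21 on the log2 scale in airway (adjusted p = 1.7e-17). Aurkb went from 6.16 to 9.41 CPM to 0.817 to 3.77 CPM (median 1.51; -2.22 ± 0.21, adjusted p = 2e-17), and Rrm2 to 2.40 to 10.3 CPM (median 4.49; -2.20 ± 0.23). Mybl2 returned to 1.36 to 3.40 CPM (median 2.13), a range that covers that of PBS AIR mice (-1.52 ± 0.13, adjusted p = 1.4e-18). In parenchyma E2f8 (-2.23 ± 0.24, adjusted p = 4.2e-14), Aurkb (-2.18 ± 0.22, adjusted p = 7.7e-15) and Mcm5 (-1.63 ± 0.18) had the smallest adjusted p of their roles. E2f1 moved least, by -0.40 ± 0.11 in each tissue (adjusted p = 0.0028 and 0.0024), and Pcna in airway by -0.48 ± 0.08.

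T and B cell markers moved with the DEX effect, since 8 of 10 and 10 of 10 fell in airway (medians -0.90 and -1.23) and 9 of 10 each in parenchyma, as did 7 of 10 germinal centre B cell markers in each (medians -2.25 and -2.15) and 5 of 6 erythroid markers, with Rhag and Tspo2 at 0 in all HDM AIR DEX libraries. Summed T cell markers in airway ran from 241 to 447 CPM in HDM AIR and 155.4 to 327 CPM in HDM AIR DEX mice. Summed B cell markers ran from 442 to 826 CPM and 189.2 to 436 CPM. Both sums after DEX overlapped the ranges of PBS AIR mice (60.4 to 300 and 122.7 to 507 CPM). The part of these cells was not tested.

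The HDM AIR DEX group was also set against untreated mice. In airway 6 genes were lower than in PBS AIR mice (25.3% of genes tested were), namely Ccne2 (-0.98), Cdc6 (-0.70), Mcm4 (-0.25), Cenpf (-1.18), Kif11 (-0.68) and Nusap1 (-0.58), and E2f1 was higher (0.47), with a median of -0.20 over the 43. In parenchyma 25 genes were lower (22.7% of genes) and 0 higher, with a median of -0.53. The shares of all genes tested that were higher are not given here for these 2 fits. Without library X32 of the HDM AIR DEX parenchyma group, 0 of the 43 genes were again higher in parenchyma. That was below the share of higher genes among all genes tested in the same fit. The comparison of HDM AIR DEX with PBS AIR mice was added after the results had been seen.

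The HDM CS DEX group, set against the same PBS AIR mice and added at the same point, differed in few of the genes in limma-voom. In airway E2f1 was higher (0.37; 21.8% of genes tested were higher) and Ccne2 (-0.89), Cenpf (-0.72) and Nusap1 (-0.65) were lower (22.2%), with a median of -0.16. Without X159 the counts were 1 and 4 (21.4% and 21.2% of genes) and the median -0.33. In parenchyma Ccne1 (0.70), Tyms (0.36), Tk1 (0.66), Cdca8 (0.66) and Kif2c (0.72) were higher (26.4%) and Mcm4 (-0.23) was lower (24.8%), with a median of 0.13. There edgeR gave 15 higher and 1 lower and DESeq2 16 and 1. The limma-voom fit without X160 gave 0 and 6 (23.7% and 25.6% of genes), with a median of -0.15. The direction of the parenchyma median thus rested on X160.

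In mice that had neither HDM nor smoke, DEX lowered fewer genes and by less. In airway 12 genes fell (6.85% of genes tested; 19 by DESeq2 and 6 with quality weights), of which Ccne2 by more than 1 (-1.04 ± 0.21, adjusted p = 0.00017; 1.85% of genes), and the median was -0.36. Mki67 was at 8.33 to 14.9 CPM (median 10.9) against 10.3 to 29.99 CPM (-0.75, adjusted p = 0.032), and Mcm6 at 6.57 to 12.4 CPM (median 9.15) against 12.6 to 19.6 CPM (median 16.5), without overlap (-0.76, adjusted p = 0.0035). The others were E2f8 (-0.91), Ccna2, Cdc6 (-0.78), Mcm4, Pcna, Aurkb, Birc5 (-0.92), Kif11 and Nusap1. In parenchyma 25 genes fell (12.0% of genes), 7 by at least 1 (2.14%; 11 by DESeq2), and the median was -0.59. Those 7 were Mki67 (-1.11 ± 0.26, adjusted p = 0.00063), Top2a (-1.0005), E2f8 (-1.10), Ccne2 (-1.04 ± 0.21), Ccna2 (-1.13 ± 0.29), Birc5 (-1.10) and Ube2c (-1.11), and Aurkb at -0.9997 lay just under the limit. Bub1 ran the other way in value, from 2.18 to 5.22 CPM (median 2.99) in PBS AIR to 3.30 to 5.12 CPM (median 4.47) in PBS AIR DEX mice, without passing (0.40, adjusted p = 0.2). T cell markers fell in 10 of 10 in airway and 8 of 10 in parenchyma and thymocyte markers in 7 of 7 and 5 of 7 tested, with Rag1 and Rag2 at 0 in all parenchyma libraries of PBS AIR DEX mice. Erythroid markers fell in 5 of 6 in each tissue (medians -2.37 and -2.33). The part of these cells was not tested.

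The difference between the DEX effect in HDM AIR and in PBS AIR mice was negative and passed for 36 genes in airway (3.52% of genes tested) and 39 in parenchyma (6.40%), with medians of -1.39 and -1.14. Without the shallowest library, X32 of the HDM AIR DEX parenchyma group, the second count was 34. For the DEX effect in smoke against that in PBS AIR mice, 0 genes passed in either tissue in limma-voom, with 0 in airway and 6 in parenchyma at an unadjusted p below 0.05, and edgeR and DESeq2 each called 0 and 2. The same comparison for HDM plus smoke gave 0 genes in either tissue, with 18 and 3 at an unadjusted p below 0.05, and 0 and 1 by edgeR and DESeq2. Shares of all genes tested and values without X116, X159 or X160 are not given for the smoke and the HDM plus smoke comparisons.

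DEX in smoke-exposed mice lowered some of the genes, none of them past a log2 fold change of -1. In airway 18 genes fell (6.61% of genes tested), 0 of them by at least 1 (2.30%), and the median was -0.54. By edgeR 6 genes passed and by DESeq2 9. Nusap1 (-0.91 ± 0.23, adjusted p = 0.0025), Birc5 (-0.91, adjusted p = 0.013) and Mki67 (-0.71, adjusted p = 0.026) were among the 18 genes that fell in limma-voom. Mki67 ran from 20.5 to 35.9 CPM (median 26.6) in PBS CS to 9.55 to 30.6 CPM (median 13.9) in PBS CS DEX mice, with overlap. In parenchyma 5 genes fell (9.49% of genes; Ccnb2, Aurkb, Kif2c, Nusap1 and Ube2c), 0 by at least 1 (2.39%), and Rrm1 rose from 38.7 to 52.2 CPM (median 45.6) to 44.7 to 76.2 CPM (median 51.4; 0.22, adjusted p = 0.026). By edgeR and DESeq2 0 genes passed as lower there, and with quality weights 28 did. Without library X116, 17 genes fell and 0 rose, and the median went from -0.34 to -0.46.

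DEX in mice given both exposures lowered 38 genes in airway (7.06% of genes tested), 21 by at least 1 (1.93%), with a median of -0.997. Without library X159 the count was 41, 24 by at least 1, and the median -1.17. Mki67 went from 43.7 to 74.7 CPM (median 54.1) to 9.09 to 51.02 CPM (median 18.7; -1.48 ± 0.22, adjusted p = 8.6e-08), Nusap1 changed by -1.60 ± 0.23 (adjusted p = 2.5e-08) and Cdc25c by -1.84 ± 0.36. E2f1, Pcna, Rrm1, Tyms and Cdc20 did not pass. T cell markers fell in 8 of 10 in each tissue, B cell markers in 9 of 10 and germinal centre B cell markers in 6 of 10 in airway and 4 of 10 in parenchyma, and their part was not tested. In parenchyma 7 genes fell (5.39% of genes), 0 by at least 1 (1.91%), with a median of -0.39. They were Mki67 (-0.81 ± 0.21, adjusted p = 0.0065), Top2a (-0.82 ± 0.23), E2f8 (-0.90 ± 0.22, adjusted p = 0.004), E2f2 (-0.24 ± 0.08), Kif11 (-0.83 ± 0.23), Nusap1 (-0.81 ± 0.22) and Cenpe (-0.75 ± 0.23). edgeR and DESeq2 passed 0 genes as lower, with medians of -0.08 and -0.05. Without library X160, 24 genes fell, 9 by at least 1, and the median was -0.67. Quality weights gave 29.

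Whether smoke changed what DEX did in HDM mice was tested as the DEX effect in HDM CS less that in HDM AIR mice, a comparison added after the results had been seen. In parenchyma it was positive for 41 genes (3.58% of genes tested), 33 by at least 1 (1.23%), with a median of 1.42, which means a smaller fall under smoke. The fall began from different levels. The mean log2 CPM of the genes in parenchyma was 2.88 in HDM CS and 3.49 in HDM AIR mice without DEX, and 2.51 and 1.85 with it. Without X160 34 genes passed, 23 by at least 1, with a median of 1.11, and without X32 41 passed. It was 1.90 ± 0.30 for Ccne2 (adjusted p = 1e-05), 1.47 ± 0.25 for Mcm5, 1.26 ± 0.32 for Mki67 and 1.59 for Top2a, while E2f1 and E2f2 missed. In airway 2 genes passed (0.274% of genes), Rrm1 (0.46, adjusted p = 0.017) and Mcm5 (0.92, adjusted p = 0.043), with 0 genes by at least 1 (0.104%), and the median was 0.85. edgeR and DESeq2 passed 1 each, and without X159 the count that passed was 0.

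Under DEX most of the genes were higher in smoke-exposed than in unexposed parenchyma. In PBS CS DEX against PBS AIR DEX mice 36 genes were higher (9.32% of genes tested), 22 by at least 1 (1.97%), with a median of 1.01. Without X116 29 genes passed, 16 by at least 1, with a median of 0.90. Mki67 was at 17.8 to 58.2 CPM (median 29.99) against 8.14 to 15.0 CPM (median 10.3), and the ranges did not overlap (1.55 ± 0.25, adjusted p = 9.4e-07). Tk1 (1.203 ± 0.225), Ccna2 (1.46 ± 0.28) and Tpx2 (1.079 ± 0.21) also passed, and E2f1, Mcm3, Mcm4, Mcm7, Pcna, Bub1 and Cdc20 did not. In airway 0 genes passed in limma-voom, edgeR and DESeq2 (2.26% of genes were higher, 0.641% by at least 1), 3 had an unadjusted p below 0.05, and the median was 0.21. The difference of this effect between tissues passed for 0 of 43 genes in limma-voom (0.0603% of genes tested had a lower effect in airway), edgeR and DESeq2, with 21 at an unadjusted p below 0.05 and a median of -0.74 (airway less parenchyma). With neighbouring codes as a replicate block 4 genes passed, Ccnb1, Kif20a, Mybl2 and Top2a, with the lower effect in airway, and 33 had an unadjusted p below 0.05. With the block and without X116 these were 2, Ccnb1 and Kif20a, and 24 (shares of all genes with the block not given). Monocyte and macrophage markers moved with it (7 of 10 rose in airway and 8 in parenchyma, where the sum ran from 249 to 353 CPM in PBS AIR DEX and 365 to 542 CPM in PBS CS DEX mice), and their part was not tested.

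HDM under DEX changed few genes. In airway 8 genes were higher in HDM AIR DEX than in PBS AIR DEX mice (23.6% of genes tested) and Cenpf was lower (-1.10; 26.2% of genes were lower), with a median of 0.18. In parenchyma Mki67 (0.70), Mybl2 (0.60) and Ccne1 (0.98) were higher (22.5% of genes) and Bub1 (-0.91) and Rrm1 (-0.25) lower (19.6%), with a median of 0.03. Both exposures under DEX gave 12 higher genes in airway (18.7% of genes) and 33 in parenchyma (20.8%), with medians of 0.24 and 0.75. Without X159 the airway counts were 8 higher and 1 lower, with a median of 0.09. Without X160 the parenchyma counts were 17 higher (18.7% of genes), 4 of them by at least 1, and 0 lower (18.2%), with a median of 0.51. The parenchyma median was 1.16 by edgeR and by DESeq2 with all libraries.

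X160, X116 and X159 were high in most of the 43 genes. X160, of the HDM CS DEX parenchyma group, held the highest value of its group for 43 of 43 genes, where over all genes the share was 22.7%, and its median difference from the other 9 libraries was 2.58 on the log2 scale against -0.003 over all genes. Mki67 reached 96.9 CPM and Top2a 79.5 CPM in it, the latter above each of the HDM AIR mice. By role the difference was 3.58 for the exit genes, 3.12 for cyclins and Cdk1 control and 2.82 for spindle genes but 1.36 for transcription factors and 1.14 for replication genes. X160 held the highest value of all libraries of the study for 21 of the genes.

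X116, of the PBS CS DEX parenchyma group, was highest for 42 of 43 genes (16.5% over all genes) with a median difference of 1.45. Here Ccne2 (2.57), Cdc6 (2.54), Rrm2 (2.41) and E2f8 (2.25) differed most within their roles, while Pcna differed by 0.90 and Rrm1 by 0.59. By role the median difference was 1.59 for cyclins and Cdk1 control, 1.55 for replication genes, 1.54 for kinase and checkpoint genes and 1.48 for deoxynucleotide supply. X159, of the HDM CS DEX airway group, was highest for 40 of 43 (12.2%) with a median difference of 1.52, led by Cdc25c (3.10) and the exit genes (2.41), while the replication genes differed by 0.36. X159 and X160 have neighbouring codes and the same condition, and over 18250 genes their deviations from the group means correlated at 0.615, the highest of the 101 pairs, where the median was 0.273. Library totals did not set them apart, with 28099346, 27279415 and 32651000 counts, each within the range of its group.

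Other genes of these libraries were also at the edge of their groups. In X160 summed alveolar macrophage markers were at 2029 CPM against 3326 to 5394 CPM in the other 9, T cell markers at 75.2 against 83.3 to 129.2 CPM and endothelial markers at 2662 against 3150 to 4233 CPM, while fibroblast markers were at 2567 against 1235 to 1497 CPM and alveolar type 2 markers at 38461 against 26331 to 34182 CPM. In X116 fibroblast markers were at 1375 against 1095 to 1289 CPM, and in X159 at 2929 against 1530 to 2180 CPM. Alveolar macrophage markers were below the other 9 in X116 (1604 against 2124 to 3956 CPM) and in X159 (1850 against 1906 to 3597 CPM). Also outside the range in X116 were endothelial, alveolar type I, granulocyte precursor, smooth muscle and cardiac muscle markers (below) and plasma cell markers (above). In X160 thymocyte and ciliated cell markers were also below the range. Germinal centre B cell, plasma cell, granulocyte precursor and smooth muscle markers were above it there. In X159 thymocyte, T cell, B cell and monocyte and macrophage markers were below the range. Neutrophil, granulocyte precursor, smooth muscle and thyroid markers were above it in X159. Cyp1a1, a detoxifying enzyme induced by smoke, was the lowest of its group in each, at 3.74 CPM in X160 (group median 27.1, with 6.62 to 14.8 CPM in parenchyma of PBS AIR mice), 12.5 CPM in X116 (median 117.2) and 3.46 CPM in X159 (median 17.7). Cyp1b1, also smoke-induced, went the other way in X160, at 40.1 CPM the highest of its group and above the 5.08 to 9.41 CPM of PBS AIR mice. Its values in X116 and X159, and those of the smoke-induced genes Ahrr and Nqo1, are not given here. The part of the differences above in the cell cycle genes was not tested.

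**Figure D4:**
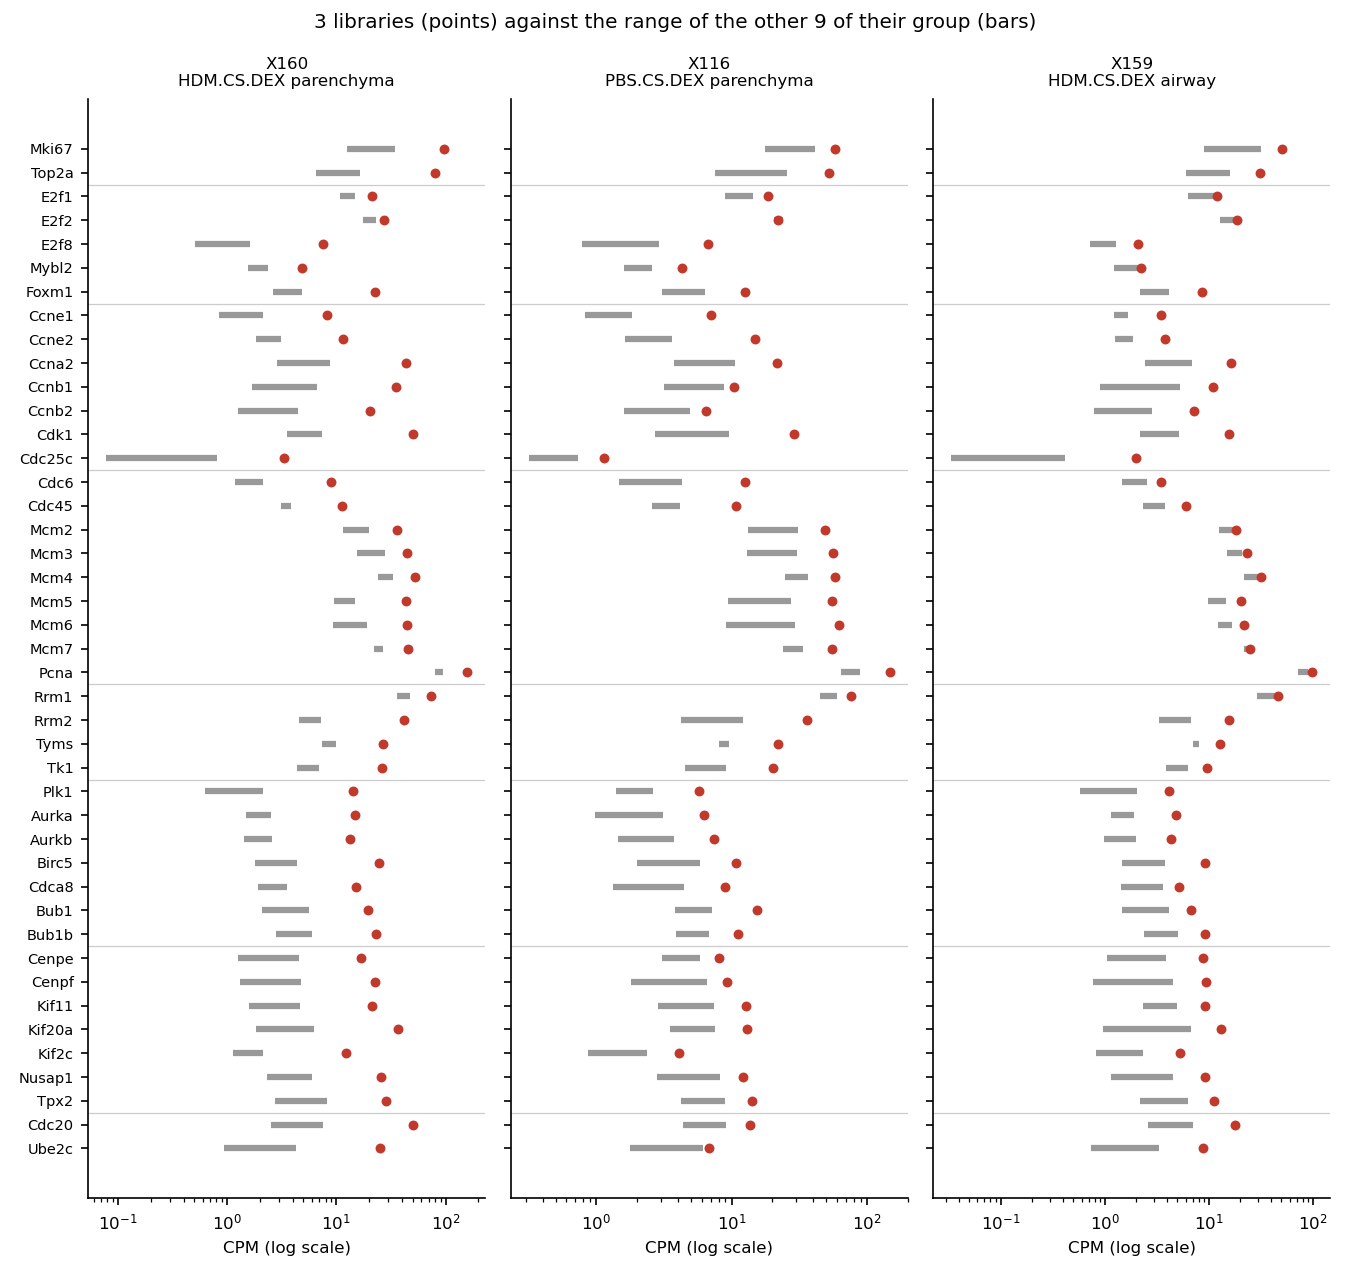
CPM (log axis) of each of the 43 genes in libraries X160, X116 and X159 (points) against the lowest to highest value of the other 9 libraries of the group (bars). In X160 the point lies above the bar for 43 of 43 genes, in X116 for 42 and in X159 for 40.

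The effects were also compared between tissues. The HDM effect was higher in airway than in parenchyma for 3 genes at 3 weeks (10.8% of genes tested), E2f2 (0.54), Mcm4 (0.29) and Bub1 (0.58), and for 5 at 11 weeks (12.7%), E2f1 (0.40), E2f2 (0.48), Foxm1 (0.55), Mcm3 (0.43) and Mcm4 (0.30); edgeR and DESeq2 each passed 2 of the 43 genes at 11 weeks, as did limma-voom with DESeq2 size factors. For HDM plus smoke 3 genes differed this way (8.94%), E2f1 (0.43), E2f2 (0.46) and Mcm4 (0.31). With neighbouring codes as a replicate block the counts were 3 at 3 weeks, 10 at 11 weeks, where Mki67, Mcm2, Rrm1, Bub1 and Cdc20 passed as well (20.2% of genes then did), and 9 for HDM plus smoke (17.1%). In PBS AIR mice themselves 5 genes were lower in airway (30.1% of genes), E2f1 (-0.65), E2f2 (-0.38), Mcm3 (-0.38), Mcm4 (-0.23) and Rrm1 (-0.20), and Mybl2 was higher (0.36). These comparisons use the same PBS AIR libraries. The DEX effects passed for 0 genes between tissues in limma-voom, edgeR and DESeq2, with 1, 0, 0 and 22 genes at an unadjusted p below 0.05 for PBS AIR, HDM AIR, PBS CS and HDM CS mice. For HDM CS mice 0.00% of genes tested were lower in airway. With the replicate block these were 1, 0, 2 and 34 genes, and Ccne2 passed for HDM CS mice, with the deeper fall in airway (share of all genes with the block not given). With the block and without X159 and X160 it was 0, with 25 at an unadjusted p below 0.05.

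PBS mice of the later time point differed from those of the earlier in some genes. In airway 0 genes were higher (21.2% of genes tested) and 8 lower at 11 than at 3 weeks (23.1%), with a median of -0.17, among them Cdc25c (-1.13), Ube2c (-0.91) and Mki67 (-0.57), and in parenchyma 4 were higher (25.5%) and 3 lower (30%), with a median of 0.06. HDM for 3 weeks gave a higher effect than for 11 weeks for 27 genes in parenchyma (20.9% of genes tested), with a median difference of 0.66, among them Top2a (1.31), Kif20a (1.31), Tpx2 (1.07), Foxm1 (1.02) and Rrm2 (1.02). In airway 4 genes passed (13.8%), Cdc45 (0.55), Rrm1 (0.35), Kif11 (0.63) and Tpx2 (0.62), with a median of 0.35. Mki67 in parenchyma ran from 81.01 to 147.4 CPM (median 105.9) at 3 weeks of HDM and from 45.1 to 118.7 CPM (median 68.9) at 11 weeks, with medians of 21.1 and 22.5 CPM in the PBS groups. The time points differ in mouse cohort as well as in exposure, and these cannot be told apart.

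Further genes of the cycle were counted in the same comparisons. The shares of all genes tested that rose under HDM or smoke, or fell with DEX in HDM mice, are given above. Of 48 further mitosis genes 45 rose under HDM at 11 weeks in airway and 42 in parenchyma, where 1 fell, and with DEX in HDM mice 46 fell in each tissue. Smoke raised 23 in parenchyma and 2 in airway, with 1 falling in each. Incenp, another partner of Aurkb, changed by 1.26 ± 0.09 (adjusted p = 6.5e-27) in airway under HDM, from 7.10 to 10.5 CPM (median 9.45) to 17.9 to 25.7 CPM (median 21.8), and the condensin gene Ncapg by -2.68 ± 0.23 with DEX in HDM mice. Of 30 further replication genes 25 rose in each tissue under HDM, with 1 falling in parenchyma, 29 fell in each with DEX in HDM mice, and 8 rose and 1 fell with smoke in parenchyma, where 0 of the 9 replication genes among the 43 passed. Fen1, a flap nuclease of lagging strand synthesis, changed by 1.38 ± 0.11 in airway under HDM and by -0.55 in airway and -0.63 in parenchyma when smoke was added to HDM.

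Genes that act before S phase and genes that restrain the cycle did not move as a block. The shares of all genes tested that fell under HDM or smoke, or rose with DEX in HDM mice, are not given here. The counts below are therefore a description and were not set against those shares. Of 10 G1 cyclins, kinases and their regulators, HDM raised 6 and lowered 1 in airway and raised 5 and lowered 3 in parenchyma. Myc rose by 0.85 ± 0.10 and 1.03 ± 0.10 while Ccnd1, cyclin D1, fell by 0.64 ± 0.13 and 0.85 ± 0.13 on the log2 scale. Ccnd1 ran from 240 to 299 CPM (median 264) in parenchyma of PBS AIR mice and from 94.8 to 203.5 CPM (median 146.4) in HDM AIR mice, without overlap. Myc in parenchyma also rose under smoke (0.91 ± 0.10, adjusted p = 2.8e-13), and its range of 11.6 to 18.7 CPM in PBS CS DEX mice lay above the 6.30 to 9.67 CPM of PBS AIR DEX mice.

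Of 24 brakes, namely inhibitors of cyclin-dependent kinases, pocket proteins, repressive E2F proteins, MuvB subunits and antiproliferative factors, HDM raised 13 and lowered 6 in airway and raised 4 and lowered 9 in parenchyma. Cdkn1c, the inhibitor p57, went from 28.7 to 45.3 CPM (median 37.6) to 6.24 to 18.3 CPM (median 10.6) in parenchyma, without overlap (-1.75 ± 0.17, adjusted p = 2.1e-18), and from 19.7 to 36.3 CPM to 5.93 to 14.7 CPM in airway (-1.45 ± 0.17). Smoke added to HDM raised it by 0.66 in airway and 0.73 in parenchyma. Btg1, an antiproliferative factor abundant in lymphocytes, rose by 0.98 ± 0.07 and 1.21 ± 0.07. Under smoke 2 brakes rose and 9 fell in parenchyma. Cdkn2a, which encodes the inhibitor p16 and the p53 regulator ARF, was at 0.448 to 1.29 CPM (median 0.683) in PBS AIR and 1.52 to 3.32 CPM (median 1.99) in PBS CS mice, without overlap (1.52 ± 0.25, adjusted p = 2e-07), and at 0.408 to 1.31 CPM (median 0.874) in HDM CS mice. Its interaction of HDM and smoke in parenchyma was -1.83 ± 0.37. With DEX it fell in smoke-exposed parenchyma by 1.16 ± 0.23 on the log2 scale (adjusted p = 8.6e-05). Of the brakes 3 rose and 7 fell with DEX in HDM mice in airway and 4 rose and 6 fell in parenchyma, E2f7 by 1.26 ± 0.19 and 1.23 ± 0.20.

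**Figure D5:**
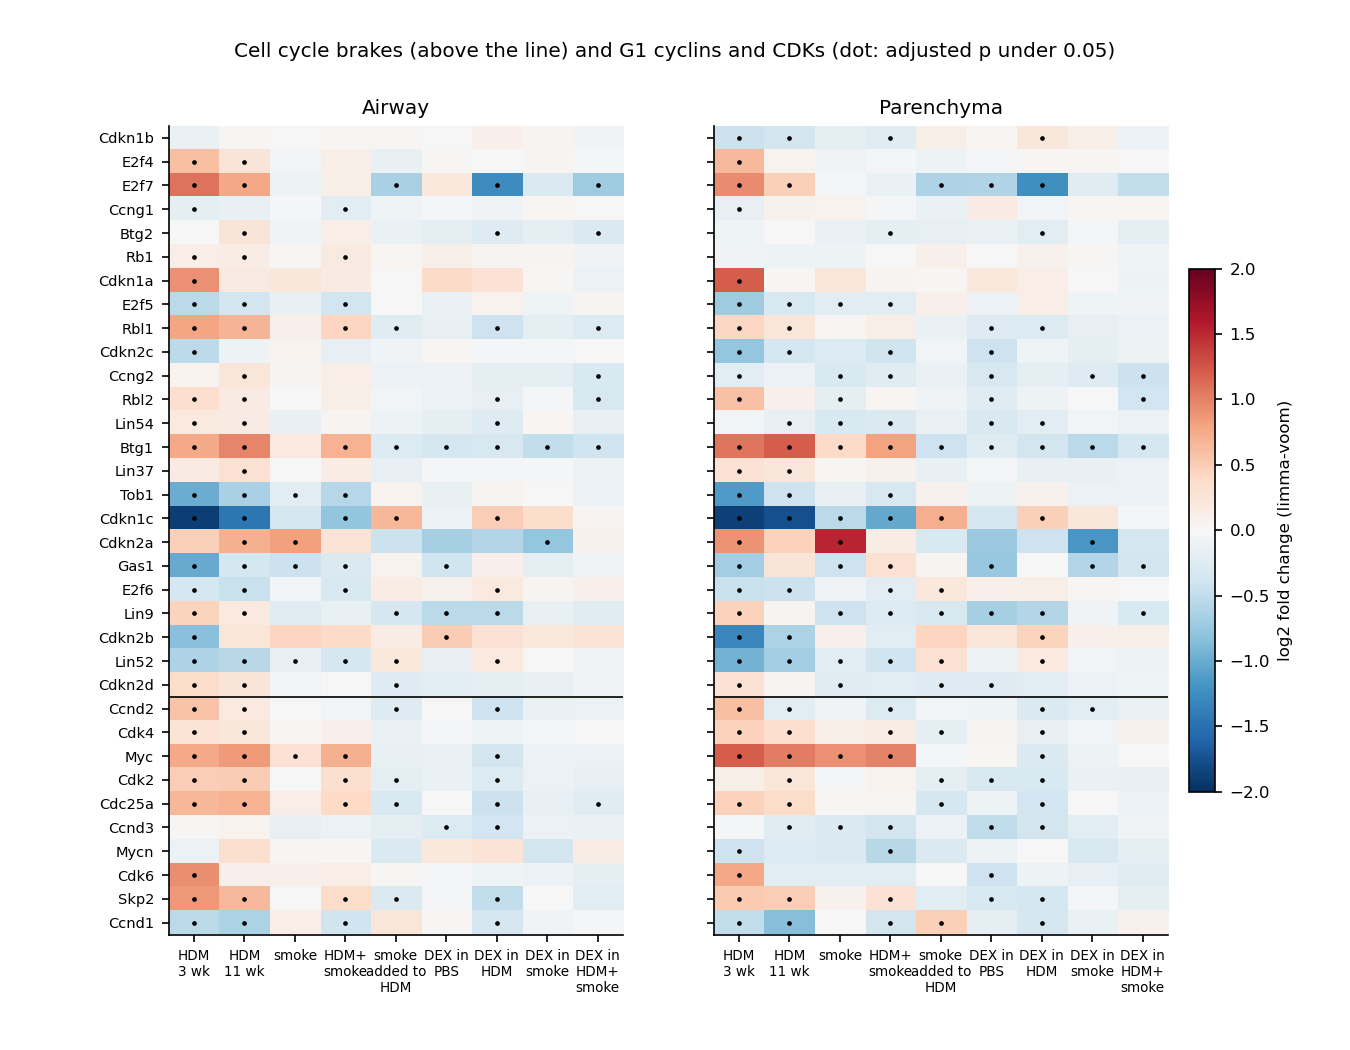
Log2 fold changes (colour, from -2 to 2) of 24 brakes (above the line) and 10 G1 cyclins, kinases and regulators (below it) in 9 comparisons for airway and parenchyma; dots mark adjusted p below 0.05 in limma-voom. Cdkn1c is low under HDM (-1.45 in airway, -1.75 in parenchyma) and Cdkn2a high under smoke in parenchyma (1.52).

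Within groups the 43 genes varied together. After each group's mean was removed, the median correlation of the 903 pairs over all libraries was 0.60, from 0.06 for E2f2 and Ccne1 to 0.92 for Mki67 and Top2a, and 0.49 without X160, X116 and X159. The libraries share depth and dissection between genes, so these values are a description. Ccna2 (0.94), Top2a (0.93), Rrm2 (0.93) and Cdk1 (0.93) followed the mean of the other genes most closely, and E2f1 (0.36), E2f2 (0.37), Mybl2 (0.48) and Pcna (0.53) least. Among genes that are not members, the residuals most like the mean of the 43 were those of Prc1 (0.91), Pbk (0.91), Cep55 (0.90), Nuf2 (0.90), Pclaf (0.88), Racgap1 (0.88), Knstrn (0.88), Hmmr (0.88), Cdca3 (0.87) and Ncapg (0.86) over all libraries.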

How the data were processed

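Total RNA of airway and parenchyma was sequenced, 1 library per sample. The authors deposited estimated counts per Ensembl gene. The submitters' processing notes name bcl2fastq 2.20.0.422, STAR 2.5.1b, RSEM 1.2.31 and kallisto 0.44.0, and the study aligned to mouse build mm10; which quantifier made the table is not given in the sources used here. Non-integer values made up 20.3% of those above 0, so estimated reads were shared between similar genes, which can blur near-identical copies, and values were rounded before testing.

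Symbols came from GENCODE M21 on GRCm38, which gave 42462 of 43346 identifiers a symbol after their version was dropped; 23106 carried the same version. Groups follow the labels. The study's filter can be read as 10 CPM or as the CPM that equals 10 counts; here a gene was kept if its CPM reached, in 9 or more libraries, the value that 10 counts give at median depth, and 10 CPM was an alternative (17381 genes at 3 weeks, 18250 at 11 weeks, 18528 for the test across time points). Counts were scaled by TMM and fitted per time point over both tissues with limma-voom (limma 3.58.1, edgeR 4.0.16, R 4.3.3), with Benjamini-Hochberg adjustment over all genes tested. A gene passed at an adjusted p below 0.05 and was called with a log2 fold change of at least 1 in size as well. Median levels are CPM; log2 CPM used a prior count of 2. The code was tested on simulated data. Python 3.11.15, pandas 2.3.3, numpy 2.4.6 and matplotlib 3.10.9 were used for tables and plots.

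The 43 genes, the marker and pathway lists and the tests were chosen with earlier results of these data known. Genes named with full values were Mki67, Top2a and, per role and comparison, up to 2 with the smallest and 1 with the largest adjusted p, genes against their role's direction, the 10 most similar genes outside the list, and from pathway lists 2 per direction with the smallest adjusted p, given for some comparisons here; the smoke-induced genes, comparisons said to be added and the gene lists around libraries X160, X116 and X159 were chosen after values were seen. Other settings tried were DESeq2 1.42.0, the quasi-likelihood test of edgeR, DESeq2 size factors, sample quality weights, other filters, other sets of libraries, a term for runs of library codes and a prior count of 0.5, and, chosen after seeing the data, leaving out X160, X116, X159 or X32 and a replicate block of libraries with neighbouring codes (duplicateCorrelation of limma). Replicate libraries differed by far more than sampling noise, with a smallest mean chi-square per gene of 8.49. Because cells were not separated, depth limits the rarest gene, Cdc25c, most.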

Additional observations from a re-analysis of the deposited data

Results flagged for a closer look

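A Dixon test of the highest and lowest library was run in 54 sets, and 7 stood out. The sets were the mean log2 CPM of the 43 genes, Mki67 and Top2a, in groups of at most 10 libraries. Chance gives about 1 in 20 for separate sets. These sets are not separate, since Mki67 and Top2a are among the 43 genes, so the count was not set against that rate. The mean of the 43 genes was 4.63 in X160 (next highest 2.67), 4.01 in X116 (2.91) and 3.39 in X159 (2.49), and it was lowest at 2.63 in X94 of the PBS CS parenchyma group (next lowest 2.89) and at 3.69 in X63 of the 3-week HDM airway group (4.09). In X160 Mki67 stood at 6.60 log2 CPM (next 5.11) and Top2a at 6.31 (4.05).

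Tests of a difference between effects passed for the following numbers of the 43 genes. The interaction of HDM and smoke did so for 38 in airway and 41 in parenchyma, and the DEX effect in HDM less that in PBS mice for 36 and 39. The DEX effect in HDM plus smoke less that in HDM mice passed for 2 and 41. The HDM effect at 3 weeks less that at 11 weeks passed for 4 and 27. The HDM effect in airway less that in parenchyma passed for 5 genes at 11 weeks and 3 at 3 weeks.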

How the results depend on the processing

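All counts here are of the 43 genes, airway before parenchyma, and the cause was not tested unless given. With DESeq2 size factors in limma-voom 71 of 72 counts stayed within 1.5 times, and the HDM effect in airway less parenchyma at 11 weeks passed for 2. Under the other reading of the study's filter (10 CPM, in 9 libraries) fewer of the genes were tested, and counts fell by construction. Passed genes were then 25 and 24 for HDM at 11 weeks, 14 for smoke in parenchyma, 21 and 13 for HDM plus smoke, 17 for HDM added to smoke in airway, 24 for smoke added to HDM in airway, 22 and 24 for the interaction, 14 for DEX in PBS in parenchyma, 25 and 25 for DEX in HDM, 11 and 1 for DEX in smoke, 20 for DEX in HDM plus smoke in airway, 20 and 16 for DEX in HDM less DEX in PBS, 23 for DEX in HDM plus smoke less DEX in HDM in parenchyma, 4 and 1 for HDM under DEX, 20 for smoke under DEX and 16 for HDM plus smoke under DEX in parenchyma, 2 and 13 lower for HDM and DEX against untreated mice, 0 lower and 2 higher for HDM plus smoke and DEX against them, and 1 for the HDM effect between tissues at 3 weeks. Called genes were 17 and 15 for HDM, 1 for smoke in parenchyma, 7 and 1 for HDM plus smoke, 13 and 15 for the interaction, 0 and 4 for DEX in PBS, 18 and 18 for DEX in HDM, 11 for DEX in HDM plus smoke in airway, 12 for smoke under DEX and 16 for DEX in HDM plus smoke less DEX in HDM in parenchyma.

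edgeR gave 0 passed genes for smoke in airway, 6 and 0 for DEX in smoke, 0 for DEX in HDM plus smoke in parenchyma, 5 for HDM under DEX in parenchyma, 1 for DEX in HDM plus smoke less DEX in HDM and 2 for the 3-week less the 11-week HDM effect in airway, 2 for the HDM effect between tissues at 11 weeks, 1 lower and 15 higher for HDM plus smoke and DEX against untreated mice, 5 for PBS at 11 less 3 weeks in airway, and 8 called genes for HDM plus smoke in airway. DESeq2 gave 0 for smoke in airway, 15 for HDM added to smoke in airway, 19 for DEX in PBS in airway with 11 called in parenchyma, 9 and 0 for DEX in smoke, 0 for DEX in HDM plus smoke in parenchyma, 5 for HDM under DEX in parenchyma, 1 for DEX in HDM plus smoke less DEX in HDM in airway, 2 for the HDM effect between tissues at 11 weeks, 16 higher for HDM plus smoke and DEX against untreated mice in parenchyma and 8 called for HDM plus smoke in airway. Quality weights gave 17 passed and 3 called for smoke in airway, 2 for smoke under DEX in airway, 6 passed and 0 called for DEX in PBS in airway, 28 for DEX in smoke, 29 passed and 9 called for DEX in HDM plus smoke 5 for HDM under DEX in parenchyma, and 5 and 6 for the HDM effect at 3 weeks and that of HDM plus smoke between tissues. Without a filter, the HDM effect between tissues at 11 weeks gave 2, smoke in airway gave 0, DEX in smoke in parenchyma 1 and DEX in HDM plus smoke less DEX in HDM in airway 1.

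For smoke in airway, all libraries in one fit gave 3 and a fit per tissue and time point gave 2. The first gave 1 for the HDM effect between tissues at 3 weeks and 8 lower in airway of PBS AIR mice, and the second 5 lower for HDM plus smoke and DEX against untreated mice in airway. For DEX in HDM plus smoke less DEX in HDM in airway these gave 1 called each, and 10 passed for the latter, and a term for runs of library codes gave 4, against 5 for HDM under DEX in parenchyma. Medians that changed sign were those of HDM under DEX in parenchyma (0.03 as reported, -0.0005 with all libraries in one fit), of the HDM effect between tissues at 3 weeks (-0.0017, against 0.0025 by edgeR and 0.1042 with quality weights) and of HDM plus smoke and DEX against untreated mice in parenchyma (0.13, against -0.0592 with quality weights and -0.1515 without X160).

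Without X160, chosen after seeing the data, DEX in HDM plus smoke in parenchyma gave 24 passed and 9 called HDM plus smoke under DEX 17, and HDM plus smoke and DEX against untreated mice 0 higher. Without X116 DEX in smoke in parenchyma gave 17, and without X159 DEX in HDM plus smoke less DEX in HDM in airway gave 0.

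Whether libraries with neighbouring codes are paired was checked after seeing the data. Their deviations from the group means correlated over genes at -0.217 to 0.615 in 101 pairs (median 0.273), at over 0.1 in 88, and in 69 the parenchyma library was closest to its neighbour among the airway libraries of its condition, so the codes are a hint of pairs that the labels do not state. With neighbours as a random replicate block 63 of 72 counts stayed within 1.5 times. The others were 3 for smoke in airway, 6 passed and 1 called for DEX in HDM plus smoke less DEX in HDM in airway, 8 for the 3-week less the 11-week HDM effect in airway and, between tissues, 10 for HDM at 11 weeks, 9 for HDM plus smoke, 1 for smoke, 4 for smoke under DEX (2 without X116) and 1 for DEX in HDM plus smoke.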
